A study of Mus musculus with 6 samples.

Results

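Natural killer (NK) cells and cytotoxic CD8 T cells kill target cells by releasing granules that hold serine proteases, the granzymes, together with the pore-forming protein perforin. NK cells decide when to release them by weighing signals from activating and inhibitory surface receptors, and both cell types secrete chemokines such as CCL5. In a resting lymph node these cells are a minority beside B cells and other T cells. The genes described here were chosen by name: the granzyme genes Gzma, Gzmb and Gzmk, the perforin gene Prf1, the granule membrane gene Nkg7, the receptor genes Klrd1, Ncr1 and Klrg1, the chemokine gene Ccl5 and the transcription factor gene Eomes. Of these 10 genes 8 had a probe, with 10 probes in all among 41034 spots that were no controls, and they stand beside 12254 genes with a symbol in the series. No probe was matched to Prf1 or Eomes, and they were not analysed here.

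The samples were mesenteric lymph nodes of adult naive mice of 2 genotypes. The TB_TNF_KO group, labelled TB-TNF KO double, lacks TNF in T cells and B cells, going by the series title, and the B_TNF_KO group, labelled B-TNF KO, lacks it in B cells, so the deletion in B cells is common to both. Each group has 3 arrays, each array measured pooled nodes of 3 mice in the Cy3 channel, and a pool of RNA from mouse cell lines, lymphocyte lines among them, was in the Cy5 channel of every array. TB_TNF_KO replicate 2 was labelled female and every other pool male. The Cre lines and the Tnf allele are not given in the sources used here, and no wild-type node was analysed here, so each value sets one knockout against the other. In pooled whole nodes, fewer cells of a type and less RNA per cell cannot be told apart.

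Several arrays stood apart before any group was compared. Between TB_TNF_KO arrays 1 and 2 the SD of the difference over probes was 0.952 times as large in the sample as in the reference channel, and 20 probes were over 2-fold apart. The other 14 pairs of arrays gave ratios of 1.05 to 1.59 and 35 to 272 such probes, so TB_TNF_KO arrays 1 and 2 were counted as 1 sample, and n is 2 against 3. The Y-linked gene Eif2s3y had a log2 ratio of -2.81 on TB_TNF_KO array 1, labelled male, -2.84 on array 2 and 1.49 on array 3, against 0.59, 0.88 and 1.83 in B_TNF_KO. Transcripts of the exocrine pancreas, an organ beside these nodes, had sample intensities that summed, over 10 of 16 listed genes, to 302644, 294352 and 2656 on TB_TNF_KO arrays 1 to 3, against 126988, 282606 and 3410 on B_TNF_KO arrays 1 to 3. Per the file headers, image features were extracted on a different day for each group, so day and genotype cannot be told apart. The log2 ratio of Tnf itself differed by -1.09 with its brighter probe (SE 0.10, adjusted p = 0.053) and by -0.26 with the other (SE 0.06, adjusted p = 0.099), and whether either lies in the deleted part is not known here. All 8 B cell markers and all 7 T cell markers that were tested were well above background on all 6 arrays. The lists held 8 and 9 genes, and listed genes that were not tested are not counted. Of all spots on an array 95.9% to 99.6% were well above background.

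The sequences of 6 probes are shown, from the deposited scanner files, because the members' values rest on how specific these probes are, and because Gzmk has a pair of probes of different sequence. Capitals mark the longest stretch that a probe shares with any other probe on the array, which was 14 bases for the tested Gzmk probe and 13 for the other 5. Among the member probes not shown it was 15 for the tested Nkg7 probe and for Klrg1, 14 for Ccl5 and 13 for Gzmb. Such overlap between probes does not show how specific a probe is for its transcript.
Gzma: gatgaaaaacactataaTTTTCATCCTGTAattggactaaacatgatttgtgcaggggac
Gzmk, tested probe: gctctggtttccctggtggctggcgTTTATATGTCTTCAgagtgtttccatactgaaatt
Gzmk, second probe: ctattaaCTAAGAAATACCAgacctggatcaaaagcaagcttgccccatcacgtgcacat
Nkg7, second probe: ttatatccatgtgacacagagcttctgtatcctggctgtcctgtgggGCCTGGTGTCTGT
Klrd1: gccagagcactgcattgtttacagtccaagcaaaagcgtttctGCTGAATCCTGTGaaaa
Ncr1: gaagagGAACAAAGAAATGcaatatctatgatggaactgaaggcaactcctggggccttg

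All 10 member probes were well above background in both channels on all 6 arrays, and 0 were saturated. The scanner gave the background flag to 95.9% to 99.6% of all spots on an array, so the flag alone does not show that a transcript was present. A value is the log2 ratio of the lymph node sample over the cell line reference for one probe. Loess centres the ratio on each array, so its sign does not tell which channel had more signal. The tested Nkg7 probe on TB_TNF_KO array 1, for one, had a ratio of 0.85 with a sample intensity of 5086 and a reference intensity of 8350. Ratios of different probes are not set against each other. Where a gene has 2 probes, the brighter one is the tested one.

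Probes for NK and cytotoxic granule transcripts were read in the nodes of both genotypes, and no difference between the genotypes passed the test. None of the 8 measured genes passed an adjusted p of 0.05 in limma, where 0% of all 37048 genes tested passed as higher and 0.0108% as lower in TB_TNF_KO. Of these 37048, 12235 had a symbol and the others were kept under the name in the scanner files. A gene may therefore count more than once in the shares given for all genes. Counted at an unadjusted p under 0.05, 0 members were higher and 2 lower, Klrd1 and Ncr1, against 5.03% higher and 11.3% lower among all genes. Gzmb, Gzmk, Nkg7 and Ccl5 had higher values in TB_TNF_KO and Gzma, Klrd1, Ncr1 and Klrg1 lower ones, 4 of 8 each way, where 45% of all genes were higher and 55% lower. The median difference of the 8 genes was -0.02 on the log2 scale, beside -0.01 over all genes, and the single differences ran from -0.34 to 0.11. The median size of the difference, without its sign, was 0.09 for the members and 0.06 for all genes. The median SD within B_TNF_KO was 0.097 for the members and 0.060 over all genes.

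**Figure D1:**
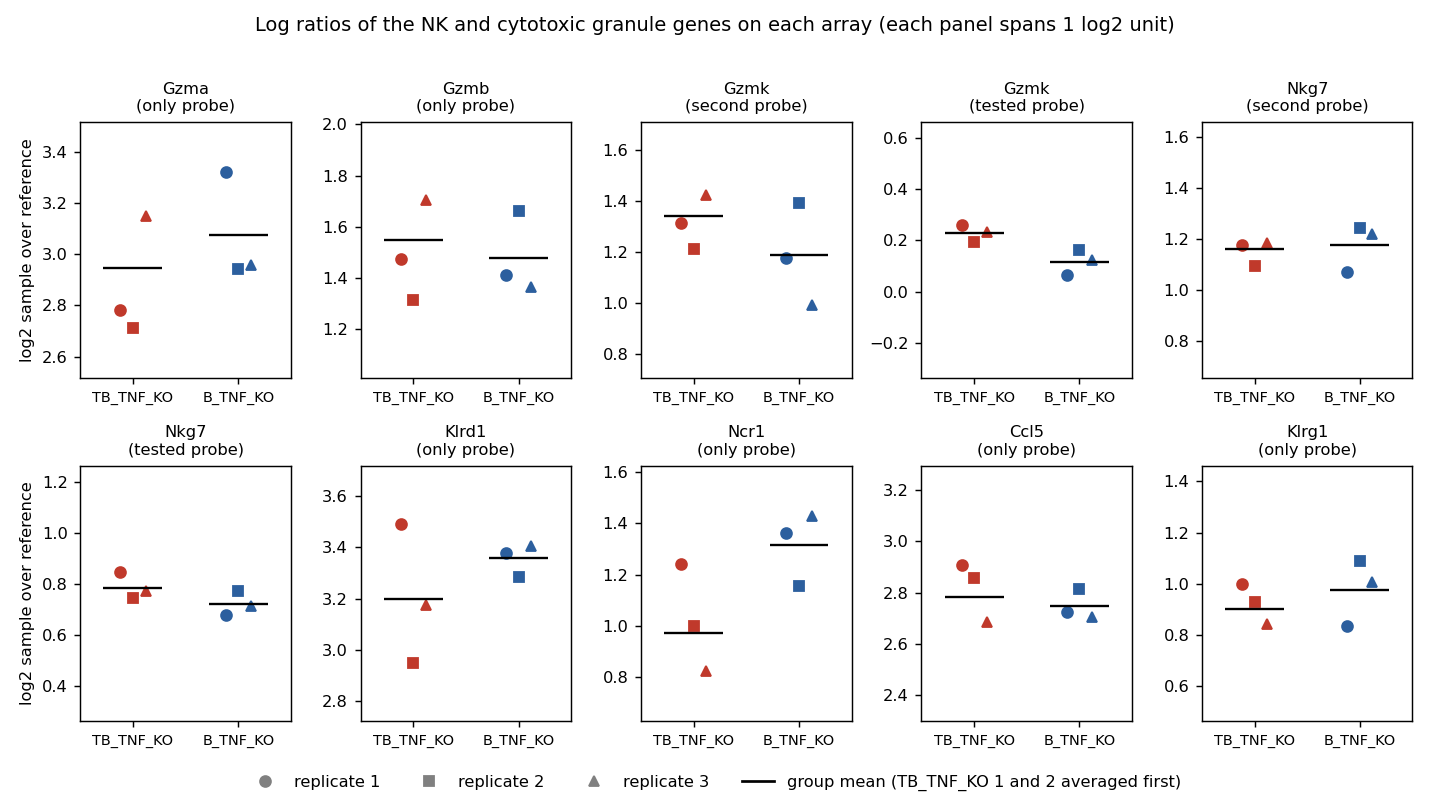
Log2 ratio of sample over reference for each of the 10 probes, 1 panel a probe, each panel spanning 1 log2 unit. Symbols mark the replicate number, and lines mark the group means with TB_TNF_KO arrays 1 and 2 averaged first. The tested Gzmk probe is the one panel in which every TB_TNF_KO array (0.19 to 0.26) lies above every B_TNF_KO array (0.06 to 0.16).

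Among the granule proteases, Gzma, which encodes the abundant tryptase-like granzyme A, had log2 ratios of 2.78, 2.71 and 3.15 in TB_TNF_KO and 3.32, 2.94 and 2.96 in B_TNF_KO. The highest array was B_TNF_KO array 1 and the lowest TB_TNF_KO array 2, and the groups overlapped. Its background-subtracted sample intensity was 495, 403 and 737 in TB_TNF_KO and 821, 577 and 737 in B_TNF_KO. The difference was -0.13 (SE 0.16, 95% confidence interval -0.52 to 0.26, adjusted p = 0.77), a fold of 0.915 with an interval of 0.698 to 1.2. The sign depended on the pools. It was -0.39 without replicate 3 of both groups and 0.19 between the replicate 3 pools alone, a comparison of 2 pools with no test.

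Gzmb, encoding granzyme B, the protease that cleaves caspases in the target cell, had ratios of 1.47, 1.31 and 1.70 in TB_TNF_KO and 1.41, 1.66 and 1.36 in B_TNF_KO. Each group held 1 high array, TB_TNF_KO array 3 and B_TNF_KO array 2, and the ranges overlapped. The difference of 0.07 (SE 0.12, interval -0.23 to 0.37, adjusted p = 0.84) lay within the spread between pools. It was -0.14 without replicate 3 of both groups and 0.34 between the replicate 3 pools alone.

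Gzmk encodes granzyme K, found in memory-type CD8 T cells and some NK cells, and lies next to Gzma with 0 protein-coding genes between them in the RefSeq order of GRCm38.p6. Its tested probe had ratios of 0.26, 0.19 and 0.23 in TB_TNF_KO and 0.06, 0.16 and 0.12 in B_TNF_KO. Every TB_TNF_KO array lay above every B_TNF_KO array. Gzmk was the 1 member of 8 with groups that did not overlap in either direction. Among all genes 10.7% had every TB_TNF_KO array above and 17.2% every one below. The difference was 0.11 (SE 0.05, interval -0.003 to 0.23, adjusted p = 0.32), a fold of 1.08. In the sample channel alone it was 0.27 (adjusted p = 0.11), in the reference channel alone 0.12, and with median centring in place of loess 0.02. The second probe had ratios of 1.31, 1.21 and 1.42 in TB_TNF_KO and 1.18, 1.39 and 0.99 in B_TNF_KO, with overlapping groups and a difference of 0.15 (SE 0.12, adjusted p = 0.61). Both probes thus had higher mean values in TB_TNF_KO, and neither passed the test.

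Nkg7 encodes a membrane protein of cytotoxic granules that is needed for their efficient release. Its tested probe had ratios of 0.85, 0.75 and 0.77 in TB_TNF_KO and 0.68, 0.77 and 0.71 in B_TNF_KO, and its second probe 1.18, 1.10 and 1.18 in TB_TNF_KO and 1.07, 1.24 and 1.22 in B_TNF_KO. Groups overlapped for both probes, and the 6 arrays of either probe spanned only 0.17. The difference was 0.06 (SE 0.05, interval -0.05 to 0.18, adjusted p = 0.59) for the tested probe and -0.02 (SE 0.06, adjusted p = 0.93) for the second. The tested probe differed by -0.10 with median centring, so it has no settled direction.

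Of the receptors, Ncr1 encodes NKp46, an activating receptor that marks NK cells and some innate lymphoid cells. Its ratios were 1.24, 1.00 and 0.82 in TB_TNF_KO and 1.36, 1.16 and 1.43 in B_TNF_KO. TB_TNF_KO array 1 lay above B_TNF_KO array 2, so the groups overlapped. The mean was 0.97 ± 0.21 (SD, n = 2) in TB_TNF_KO and 1.32 ± 0.14 (SD, n = 3) in B_TNF_KO. The difference of -0.34 (SE 0.11, interval -0.62 to -0.06, adjusted p = 0.22), a fold of 0.788, was the largest among the 8 members and did not pass.

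The Ncr1 probe read near the median of all spots, which was 143.5 to 166.5 in TB_TNF_KO and 158.7 to 203.4 in B_TNF_KO in the sample channel. Its sample intensity was 144, 144 and 126 in TB_TNF_KO and 209, 190 and 269 in B_TNF_KO, and its reference intensity 97.7, 142 and 109 in TB_TNF_KO and 98.7, 123 and 111 in B_TNF_KO. In the normalised sample channel all TB_TNF_KO arrays lay below all B_TNF_KO arrays, with a difference of -0.39 (adjusted p = 0.085). Among all genes 17.4% did so there, and 15.4% had all TB_TNF_KO arrays above. At an unadjusted p under 0.05, that channel had 11.1% of all genes higher and 11.5% lower, and 1 member higher (Gzmk) and 2 lower (Ncr1 and Klrd1). The Ncr1 difference kept its sign in all 24 alternatives run for it, but some of these could not change it. Ncr1 has only this probe, so the probe filters, the averaging of probes and the spread model left it at -0.34. Keeping the pools labelled male was the same fit as leaving out TB_TNF_KO replicate 2 (-0.28). The size of the Ncr1 difference followed the pools. It was -0.20 without TB_TNF_KO replicate 3 (adjusted p = 0.59), -0.14 without replicate 3 of both groups (adjusted p = 0.82) and -0.60 between the replicate 3 pools alone. Without TB_TNF_KO replicates 1 and 2 it was -0.49 (adjusted p = 0.31).

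Klrd1 encodes CD94, the partner of the NKG2 receptors on NK cells and activated CD8 T cells. Its ratios were 3.49, 2.95 and 3.18 in TB_TNF_KO and 3.38, 3.29 and 3.41 in B_TNF_KO. TB_TNF_KO arrays 1 and 2, counted as 1 sample, were the highest and the lowest of all 6 and lay on both sides of the B_TNF_KO arrays. They differed by 0.55, more than at 99.9% of all genes. Averaging them gave a TB_TNF_KO mean of 3.20 ± 0.03 (SD, n = 2), close to array 3, beside 3.36 ± 0.06 (SD, n = 3) in B_TNF_KO. The difference of -0.16 (SE 0.05, interval -0.29 to -0.03, adjusted p = 0.22) therefore rests on a mean of unlike arrays. With the 6 arrays counted separately its adjusted p was 0.54, and the difference was -0.02 without TB_TNF_KO replicate 2 and -0.30 without TB_TNF_KO replicate 1 (adjusted p = 0.95 and 0.15).

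The reference channel of the Klrd1 probe, the same RNA on every array, read 123, 191 and 145 in TB_TNF_KO and 160, 155 and 162 in B_TNF_KO. After normalisation it was lower on every TB_TNF_KO array, by -0.25 (adjusted p = 0.12), and the share of all genes without overlap there was not counted. At an unadjusted p under 0.05, 0 members were higher and 2 lower (Klrd1 and Ccl5) in that channel, where 9.16% of all genes were higher and 13.6% lower. The sample channel alone differed by -0.18 (adjusted p = 0.19), again with every TB_TNF_KO array below, as for 17.4% of all genes in that channel. Klrd1 thus had lower normalised readings in TB_TNF_KO in both channels.

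Klrg1 encodes an inhibitory receptor of mature NK cells and of effector CD8 T cells. Its ratios were 1.00, 0.93 and 0.84 in TB_TNF_KO and 0.83, 1.09 and 1.01 in B_TNF_KO, with overlapping groups. The difference was -0.07 (SE 0.09, interval -0.28 to 0.13, adjusted p = 0.74), and in the sample channel alone it was -0.00052.

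Ccl5 encodes the chemokine RANTES, which resting memory CD8 T cells and NK cells hold as transcript and release on activation. Its ratios were 2.91, 2.86 and 2.69 in TB_TNF_KO and 2.72, 2.81 and 2.71 in B_TNF_KO, with TB_TNF_KO array 3 the lowest of the 6. The groups overlapped, and the difference was 0.04 (SE 0.07, interval -0.14 to 0.21, adjusted p = 0.86). A Ccl5 change above 1.16-fold or below 0.908-fold lies outside that interval. The normalised reference channel was lower on every TB_TNF_KO array for this probe, by -0.24 (adjusted p = 0.17), and the sample channel alone differed by -0.05. The share of all genes without overlap in the reference channel was not counted. The difference had the opposite sign in 5 of 24 alternatives. It was -0.05 in the sample channel alone, -0.02 without background subtraction and -0.07 with median centring. Without TB_TNF_KO replicates 1 and 2 it was -0.06, and between the replicate 3 pools alone -0.02. The probe filters, probe averaging and spread model, counted among the 24, could not change the difference and left it at 0.04.

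**Figure D2:**
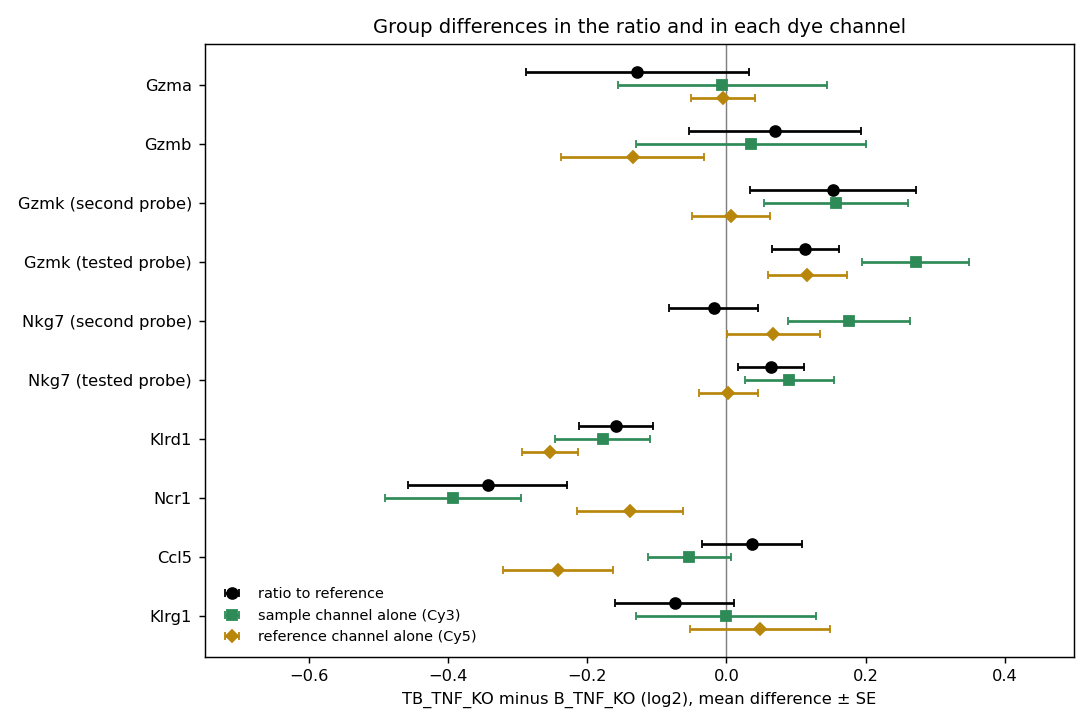
Difference of TB_TNF_KO minus B_TNF_KO in log2 units for each probe, as mean ± SE of the fit with n = 2 and 3, in the ratio (circles), the sample channel alone (squares) and the reference channel alone (diamonds). Ncr1 at -0.34 and -0.39 lies left of 0 in the ratio and the sample channel, while the reference channel of Klrd1 (-0.25) and of Ccl5 (-0.24) lies farther from 0 than the ratio of any other probe but Ncr1.

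The members did not vary as one block across arrays. Of the 8 tested probes 4 had their highest ratio on TB_TNF_KO array 1, and 3 each had their lowest on TB_TNF_KO array 2 and on B_TNF_KO array 1. With each gene set against its own mean over the 6 arrays, the median deviation of the 8 genes was 0.08, -0.10 and -0.04 on TB_TNF_KO arrays 1 to 3, against -0.07, 0.01 and -0.03 on B_TNF_KO arrays 1 to 3. TB_TNF_KO array 1 was the highest and array 2 the lowest, so the groups overlapped.

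Of 7 T cell genes 6 and of 8 B cell genes 5 had lower values in TB_TNF_KO, beside 55% of all genes, and 0 passed the test. All TB_TNF_KO arrays lay below all B_TNF_KO arrays for 3 of the 7 and 4 of the 8, beside 17.2% of all genes. The median deviation of the T cell genes was -0.06, -0.09 and -0.01 in TB_TNF_KO and -0.02, 0.13 and 0.11 in B_TNF_KO, with overlapping groups. That of the B cell genes was -0.08, -0.14 and -0.01 in TB_TNF_KO and 0.04, 0.05 and 0.11 in B_TNF_KO, with no overlap. Cd8b1, a chain of the CD8 coreceptor, had ratios of 5.49, 5.14 and 5.37 in TB_TNF_KO and 5.65, 5.52 and 5.40 in B_TNF_KO, and differed by -0.18 (SE 0.08, adjusted p = 0.32) and by -0.01 in the sample channel alone. The T cell list had a median difference of -0.09 in the ratio and 0.06 in the sample channel alone. Scanner intensities before any scaling, summed over the tested probes, were 12429 to 15780 for the members and 19005 to 25630 for the T cell list in TB_TNF_KO, against 16848 to 21477 and 26597 to 36070 in B_TNF_KO. Such sums are not corrected for the brightness of each array. The median sample intensity of all spots was also lower in most TB_TNF_KO arrays, at 143.5 to 166.5 against 158.7 to 203.4 in B_TNF_KO. Of 7 mast cell and basophil genes 6 had lower values in the ratio, beside 55% of all genes. Their median difference was -0.05 in the ratio and 0.02 in the sample channel alone. The summed intensity of these genes, again not corrected for array brightness, was 1132 to 1246 in TB_TNF_KO and 1253 to 1533 in B_TNF_KO. The part of these cells in the members' values was not tested.

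**Figure D3:**
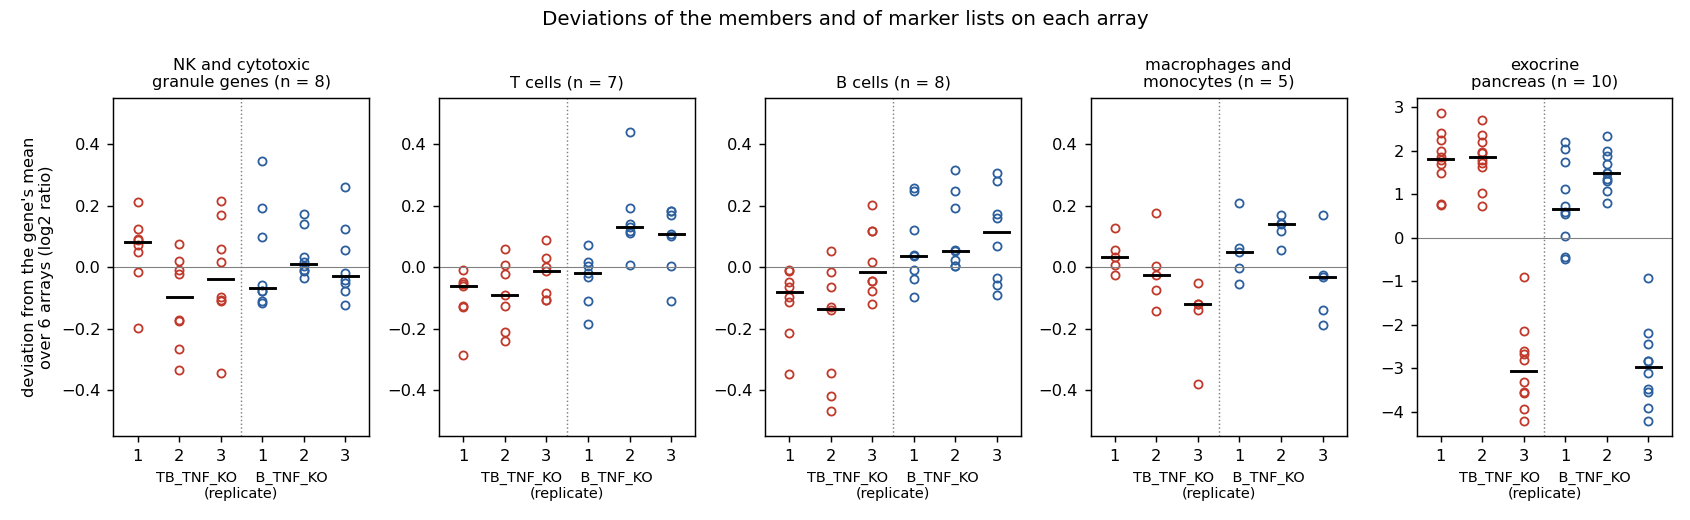
Deviation of each gene's log2 ratio from its own mean over the 6 arrays, 1 circle a gene, for the members and 4 marker lists, with TB_TNF_KO left and B_TNF_KO right of the dotted line and a bar at the median. The members' medians lie between -0.10 and 0.08, while those of the exocrine pancreas list, on a wider axis, lie between 0.66 and 1.86 on arrays 1 and 2 of each group and at -3.07 and -2.97 on TB_TNF_KO and B_TNF_KO array 3.

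A wider list of 74 genes of NK and cytotoxic function, the members included, had 61 genes tested. In limma 0 passed as higher and 0 as lower, with 1 higher and 11 lower at an unadjusted p under 0.05, which is 18% of the list lower beside 11.3% of all genes. Values were lower in TB_TNF_KO for 42 and higher for 19 genes, 68.9% lower beside 55% of all genes, and the median was -0.06 beside -0.01. It was not seen in one dye: in the sample channel alone 27 were lower and 34 higher, with a median of 0.01, where 50.4% of all genes were lower and 49.6% higher. Of the members 5 were lower and 3 higher there. With the 6 arrays counted separately 1 gene was called higher and 6 lower (all genes: 1.45% higher and 4.68% lower). With the replicate number as a block, again on 6 arrays, 2 were called higher and 4 lower (all genes: 1.84% and 6.48%). Both fits count TB_TNF_KO arrays 1 and 2 as 2 samples. In the block fit Serpinb9, 1 of the 4, has 1 B_TNF_KO value and so rests on the replicate 3 pair alone, with no residual spread of its own.

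Of 9 measured granule protease genes, Gzma, Gzmb and Gzmk among them, 0 passed the test and 0 had an unadjusted p under 0.05, with a median of -0.02. Gzmm, encoding granzyme M, differed by -0.06 (SE 0.04) and Gzme, encoding granzyme E, by -0.00 (SE 0.05).

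Among 10 measured genes of granule packaging, release and protease control, 3 (30%) had lower values at an unadjusted p under 0.05, beside 11.3% of all genes. Srgn, encoding serglycin, the proteoglycan that binds granzymes in the granule, differed by 0.05 (SE 0.05). Lamp1, a lysosomal membrane protein that reaches the cell surface on degranulation, differed by -0.18 (SE 0.04, adjusted p = 0.13). The other 2 are named after their values were seen. Serpinb9 encodes an inhibitor of granzyme B that protects the killer cell, and its ratios were 2.06, 1.99 and 1.94 in TB_TNF_KO and 2.5 on B_TNF_KO array 3, the spots on B_TNF_KO arrays 1 and 2 being left out as outliers. It differed by -0.51 (SE 0.07, adjusted p = 0.085) with that single B_TNF_KO value assumed to vary like other genes' samples, and its second probe by -0.63 (adjusted p = 0.056). Serpinb6b, another intracellular serpin gene, had ratios of 1.84, 1.77 and 1.88 in TB_TNF_KO and 2.53, 2.31 and 2.69 in B_TNF_KO. It differed by -0.66 (SE 0.11, adjusted p = 0.062), by -0.24 with its second probe and by -0.65 with sample signal only.

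The 17 measured receptor and adaptor genes had 15 lower (88.2%) and 2 higher values in the ratio, beside 55% of all genes lower, with a median of -0.08 beside -0.01, but a median of 0.01 in the sample channel alone. Tyrobp encodes DAP12, the adaptor of activating NK and myeloid receptors, and differed by -0.23 (SE 0.05, adjusted p = 0.096), while its second probe differed by -0.00. The macrophage and monocyte list, whose cells also use DAP12, had lower values for 4 of 5 measured genes (of 8), with differences from -0.41 to 0.08, a median of -0.10, and -0.20 in the sample channel alone. Its summed intensity, not corrected for array brightness, was 48817 to 61192 in TB_TNF_KO and 77471 to 104191 in B_TNF_KO, and its part in the Tyrobp value was not tested. Hcst, encoding the adaptor DAP10, differed by -0.10 (SE 0.07). Slamf7, an NK and plasma cell receptor named after its values were seen, had ratios of 1.22, 1.19 and 1.36 in TB_TNF_KO and 0.88 and 0.84 on B_TNF_KO arrays 1 and 3, array 2 being left out as an outlier spot. It differed by 0.42 (SE 0.07, adjusted p = 0.075), and by -0.16 in the authors' deposited values, where that outlier spot was not left out.

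Of 7 secreted effector genes 2 (28.6%) had lower values at an unadjusted p under 0.05, beside 11.3% of all genes. Xcl1, encoding lymphotactin, the chemokine by which NK and CD8 T cells draw cross-presenting dendritic cells, had ratios of 2.16, 1.95 and 2.13 in TB_TNF_KO and 2.52, 2.47 and 2.81 in B_TNF_KO. The groups did not overlap, with all TB_TNF_KO arrays lower, as for 17.2% of all genes, and the difference was -0.51 (SE 0.11, adjusted p = 0.092). In the sample channel alone Xcl1 passed, at -0.54 (adjusted p = 0.047), the 1 gene of the wider list called there, where 0.683% of all genes were called higher and 0.775% lower. Fasl, the death ligand gene, differed by -0.22 (SE 0.06, adjusted p = 0.14).

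Of 7 measured transcription factor genes 4 had higher and 3 lower values, beside 45% and 55% of all genes. Tbx21 encodes T-bet, which with Eomes drives the NK and effector CD8 programme, and had ratios of 0.87, 0.81 and 1.04 in TB_TNF_KO and 1.22, 1.45 and 1.35 in B_TNF_KO. It differed by -0.39 in the ratio (SE 0.09, adjusted p = 0.11), by 0.01 with sample signal only and by 0.30 with reference signal only. The reference RNA was the same on every array, so the 0.30 is a difference in channel readings between arrays. Its part in the ratio was not tested. Id2, a repressor needed for NK development, differed by -0.08 (SE 0.08).

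Of 11 cytokine and chemokine receptor genes 8 (72.7%) had lower values in the ratio, beside 55% of all genes, with a median of -0.08 that was 0.04 in the sample channel alone. Il2rb, the beta chain through which NK cells sense IL-15, differed by -0.14 (SE 0.06, adjusted p = 0.33) and by 0.19 in the sample channel alone. Cxcr3, a chemokine receptor of effector lymphocytes, differed by -0.21 (SE 0.07, adjusted p = 0.24) and by 0.08 in the sample channel alone.

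**Figure D4:**
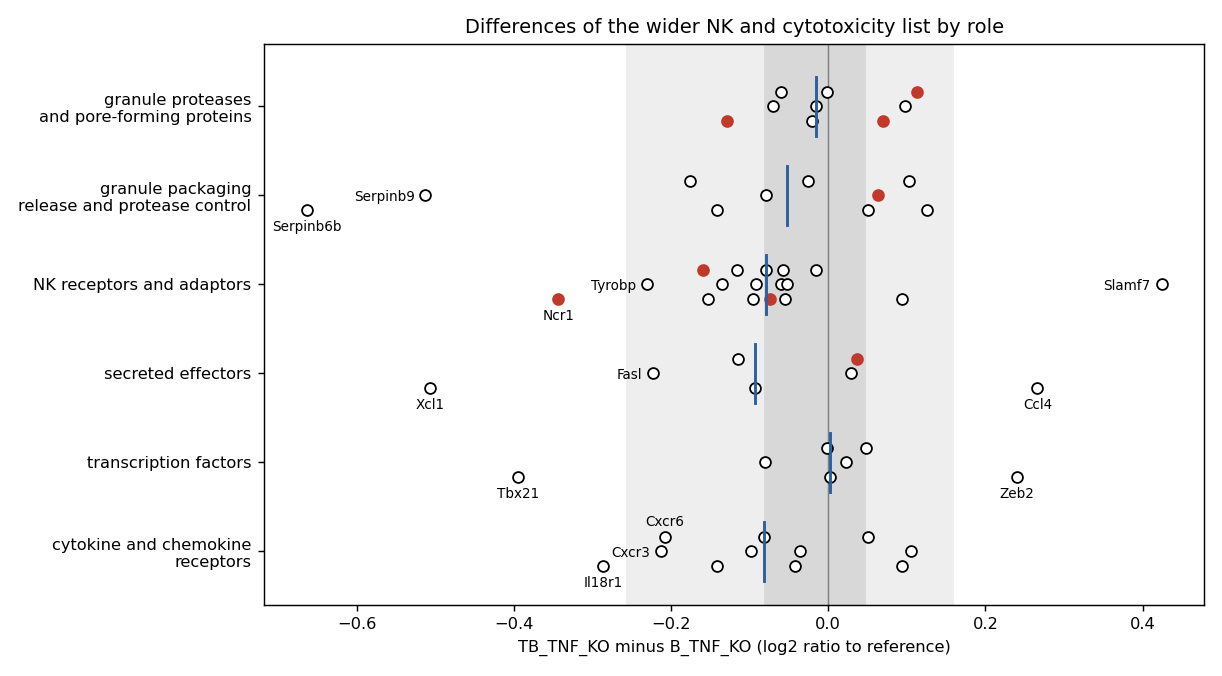
Difference of TB_TNF_KO minus B_TNF_KO in log2 units for the 61 measured genes of the wider list, 1 row a role, with members as filled and other genes as open circles and the blue line at each role's median. The light and dark grey bands hold the central range of all genes, from the 5th to the 95th percentile (-0.26 to 0.16) and from the 25th to the 75th (-0.08 to 0.05); names are given beyond 0.2 in size. Height within a row carries no value.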

How the data were processed

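Each array measured 1 pool of mouse lymph node RNA (Cy3) against cell line RNA (Cy5). Agilent Feature Extraction A.7.5.1 was used on the scans, per the file headers, and the deposited scanner files hold spot and background intensity for both dyes. The log10 ratio in the deposited scanner files was not the main measure. The deposited series table holds log10 values that followed the processed Cy3 signal (r 0.994 to 0.997 across probes, which are not independent replicates). Their column medians were 2.98 to 2.99, and any scaling between arrays is unknown.

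Accessions were named through RefSeq (GRCm38.p6), which gave a symbol to 15303 of 41034 spots. Intensities were corrected with normexp (offset 50) and loess in limma 3.58.1 (R 4.3.3), leaving out control spots and 228 outlier spots. Probes well above background on at least 3 arrays were kept, 40792 of 41006. The brightest probe stood for a gene. Groups were compared with lmFit and eBayes on log2 sample over reference, with Benjamini-Hochberg adjustment over 37048 genes, and the script was tested on simulated data. P-values measure only the spread between pools, and the labels alone say that pools are separate animals. The number of arrays limits the precision.

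Members and lists were chosen with earlier results of these data known. From each role of the wider list the rule named the 2 brightest non-members, any gene past the threshold, and Tnf. Over all genes 4 passed: AK031739, Cxcl13, Lyve1 and Prg4, all lower. Deviations from the group means of same-numbered arrays correlated with r 0.14, 0.52 and 0.62 for replicates 1, 2 and 3. TB_TNF_KO array 1 correlated best with B_TNF_KO array 2, so pairing by number is not settled. The main test had no replicate term, and the replicate number entered a fit only in the block alternative. The alternatives changed the background correction, normalisation, dye channel, probe filters, spread model, GC correction and replicates. Figures were drawn with matplotlib 3.10.9.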

Additional observations from a re-analysis of the deposited data

How the results depend on the processing

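The number of members called was 0 in each direction under all alternatives run, the replicate block and each array left out included. The count of 0 higher and 0 lower in the wider list became 1 higher (Slamf7) and 6 lower (Lamp1, Serpinb6b, Serpinb9, Tbx21, Tyrobp and Xcl1) with the 6 arrays counted separately, and 0 higher and 1 lower (Xcl1) with the sample channel alone. With the replicate number as a block on 6 arrays it was 2 higher (Slamf7 and Zeb2) and 4 lower (Serpinb6b, Serpinb9, Tbx21 and Xcl1), where Serpinb9 rests on the replicate 3 pair alone and has no test of its own. The fits on 6 arrays count TB_TNF_KO arrays 1 and 2 as 2 samples. Otherwise it stayed at 0, also with each replicate left out (0 to 0). Added after the data were seen were 2 alternatives, TB_TNF_KO replicates 1 and 2 left out and the replicate 3 pools alone. Over 24 alternatives, the reference channel alone not counted, the difference ranged from -0.60 to -0.14 for Ncr1, from -0.30 to -0.02 for Klrd1, from 0.02 to 0.27 for Gzmk, from -0.39 to 0.19 for Gzma, from -0.14 to 0.34 for Gzmb, from -0.10 to 0.09 for Nkg7, from -0.07 to 0.13 for Ccl5 and from -0.17 to 0.00 for Klrg1. The cause of these shifts was not tested. No call reversed. With n of 2 and 3, intervals of the members reached from -0.62 to 0.37, so changes within them were not detectable for every gene.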

Other observations

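Ctsc, encoding the dipeptidyl peptidase that activates granzymes, was named after its values were seen. Its log2 ratios were 3.41, 3.22 and 3.24 in TB_TNF_KO and 3.91, 1.73 and 3.81 in B_TNF_KO. B_TNF_KO array 2 lay below all other arrays and arrays 1 and 3 of that group above them, and the difference of 0.13 had an SE of 0.65 (adjusted p = 0.95).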
